A study of Mus musculus with 6 samples.

Results

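The genes described here encode the semaphorins, their plexin receptors, the Eph receptors and the ephrins, which carry guidance signals between cells. They were taken from the deposited gene table by symbol: Sema3 to Sema7 genes, plexins A to D, EphA and EphB receptors, and ephrins A and B, each with a summed count of at least 15 over 6 libraries. Of 49 rows with such a symbol, 48 met the count limit, out of 28368 genes in the table. The row left out was Plxnb3, with 7 counts, all in control library 3. The members nearest the limit were Epha10, with 21 counts, and Ephb1, with 32.

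The libraries were made from polyadenylated RNA of whole mouse tumours. The treated group was 3 tumour libraries from mice given a therapy labelled MS-DF-MS for 12 h. The control group was 3 tumour libraries from untreated mice. The series title describes implants that deliver a STING agonist and, after it, a drug that induces apoptosis. The labels state no tumour line, mouse strain, sex, age, drug name or dose. No library analysed here came from a tumour with an empty implant, so a response to the drugs and a response to the implant cannot be told apart. The labels do not say that the libraries of a group came from separate animals, so the p-values reflect only how these libraries spread, which may be technical. In whole tumours, fewer cells of a type and less RNA per cell cannot be told apart.

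Library totals lay between 57017043 and 66634551 counts. On the first principal component of log2 CPM (counts scaled to library size), treated library 3 lay at 72.9 and the other 5 libraries between -37.9 and 13.3. Treated library 1 held 102.6 CPM summed over 12 keratinocyte and epithelial markers, against 3.06 and 3.58 CPM in the other treated libraries and 2.55 to 4.53 CPM in the controls. Pigment cell markers summed to between 29531 and 31694 CPM in treated libraries and between 28067 and 30924 CPM in controls. The guidance genes together took 0.208%, 0.208% and 0.228% of the counts of treated libraries 1, 2 and 3, against 0.217%, 0.209% and 0.193% in control libraries 1, 2 and 3.

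Semaphorins are secreted or membrane-bound ligands that bind plexins, in several cases together with a neuropilin or integrin, and plexins act through small GTPases on the cytoskeleton and on adhesion. Ephrin-A ligands are held in the membrane by a lipid anchor and ephrin-B ligands span it, and both signal to Eph receptor tyrosine kinases on a touching cell, with signalling also running back into the ephrin-bearing cell. First described in axon guidance, these families also act in blood vessel growth, in immune cell contacts and in the migration of neural crest cells, the lineage that gives rise to pigment cells.

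Levels of different genes were compared as FPKM, fragment counts scaled to gene length and depth, as deposited by the authors. Plexins were the most abundant class. They summed to 155.5, 157.1 and 174.1 FPKM in treated libraries 1, 2 and 3, against 162.9, 157.2 and 145.8 FPKM in control libraries 1, 2 and 3, and these ranges overlapped. Plexins made up 61.5% to 63.3% of the summed FPKM of all guidance genes in treated libraries and 63.7% in each control. The same 3 plexins led in every library, in the same order. Plxna1, a receptor for class 6 semaphorins and, with neuropilins, for class 3, averaged 62.3 ± 5.36 FPKM in treated and 58.1 ± 6.93 FPKM in control tumours (SD, n = 3 each, as for all such values here). Plxnb2, a receptor for Sema4c, averaged 45.0 ± 3.86 FPKM in treated and 46.9 ± 0.936 FPKM in control tumours. Plxnd1, the receptor for Sema3e, averaged 29.0 ± 1.81 FPKM in treated and 28.4 ± 0.704 FPKM in control tumours. Within each of these genes the groups overlapped.

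Epha3, the most abundant Eph receptor, followed at 15.3 ± 3.06 FPKM in treated and 18.2 ± 1.70 FPKM in control tumours. Plxnc1, the plexin that binds Sema7a, lay next at 14.8 ± 2.21 FPKM in treated and 12.8 ± 1.08 FPKM in control tumours. In treated tumours, the means of Epha3 and Plxnc1 lay closer together than their SDs. Among ligands the order differed between the groups. Sema7a came first in treated tumours at 14.1 ± 2.37 FPKM and stood below Sema3b and Sema4c in controls, at 7.41 ± 1.34 FPKM. Sema3b, a secreted semaphorin, averaged 10.05 ± 0.626 FPKM in treated tumours and came first among the ligands in controls at 10.7 ± 2.13 FPKM. Of the 48 genes, 9 averaged above 10 FPKM in treated tumours and 6 in controls, and 27 averaged below 1 FPKM in each group.

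**Figure D1:**
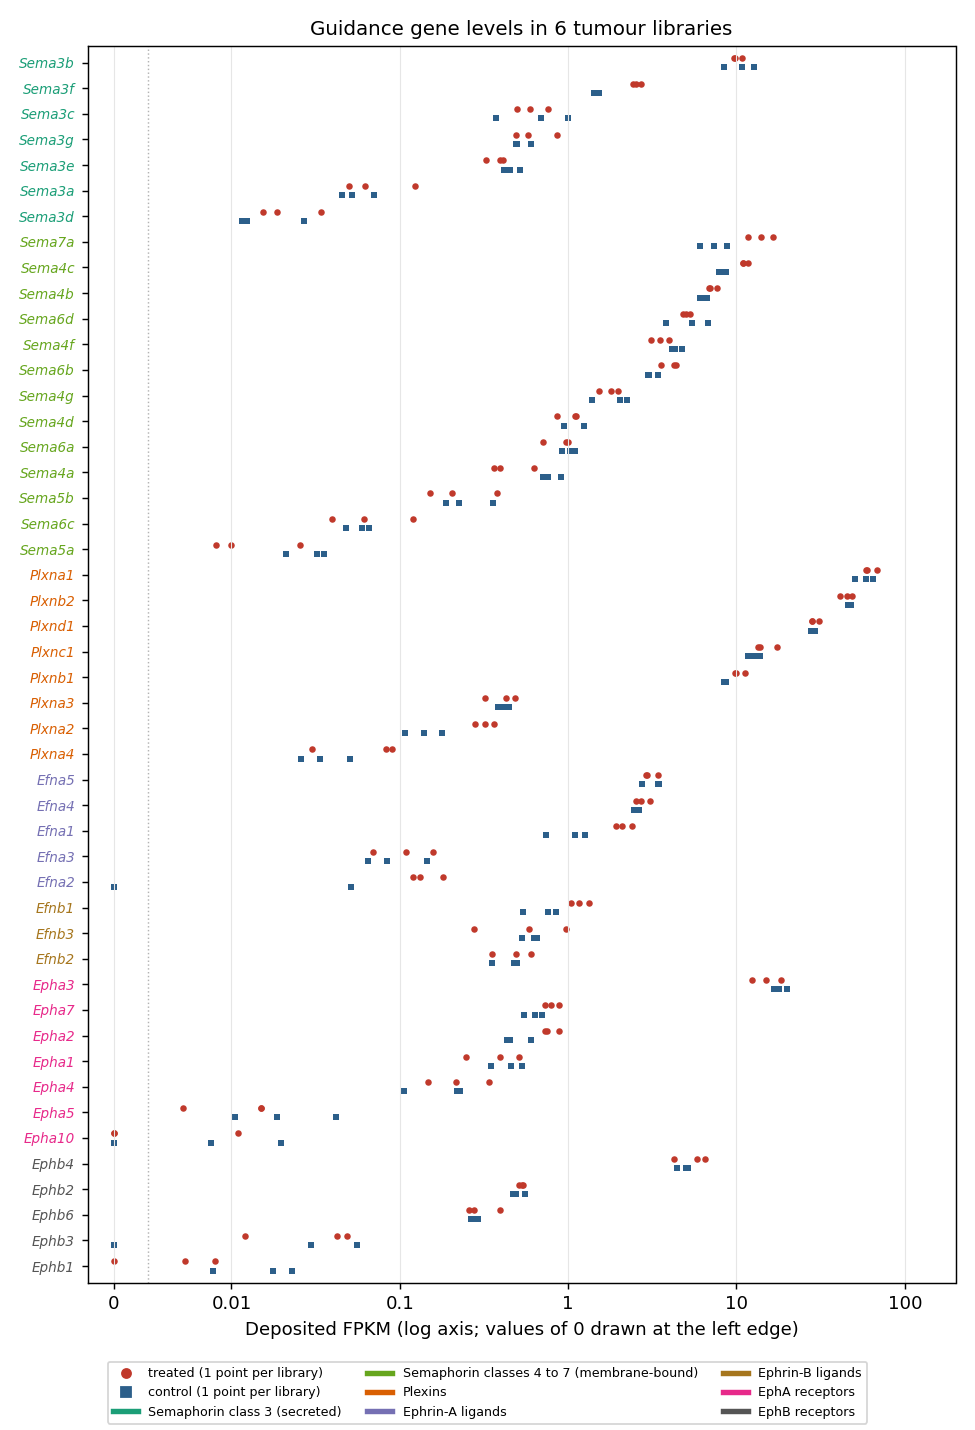
Deposited FPKM of each of the 48 guidance genes on a log axis, ordered by class and, within a class, by mean level; circles are treated libraries and squares control libraries, 3 of each, and values of 0 are drawn at the left edge. Plxna1, Plxnb2 and Plxnd1 lie furthest right in both groups, and for Sema3f, Sema4c and Sema7a the treated points lie apart from the control points.

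Treated tumours held more transcript of 3 guidance genes, the secreted semaphorin Sema3f and the membrane-bound semaphorins Sema4c and Sema7a. These were the members past an adjusted p of 0.05 in edgeR's quasi-likelihood test with Benjamini-Hochberg adjustment over all 18049 genes tested. No member fell past that threshold. Of the 48, 46 passed the filter on low counts and were tested. The 3 that rose stand against 1.36% of all genes tested, the 0 that fell against 0.249%, and both directions together against 1.61%. An unadjusted p under 0.05 was found for 13 of the 46, against 16.0% of all genes. Of these, 11 were higher in treated tumours (background 9.12%) and 2 lower (background 6.90%). The 11 include Efna2, which passed the filter on low counts through the treated group alone. DESeq2 called 6 members higher and none lower, where it called 4.18% of all genes higher and 2.03% lower. With limma-voom and sample quality weights 5 were higher and none lower, against 3.33% and 1.06% of all genes.

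All 3 treated libraries lay above all 3 controls for 12 of the 46 members, against 12.0% of all genes tested, and below them for 3, against 11.2%. The 12 again include Efna2. Without control library 3 the members whose groups did not overlap numbered 23 in place of 15, beside 31.1% of all genes in place of 23.3%. That was the largest such number, which ran from 16 to 23 over the fits without 1 library, beside 29.8% to 35.7% of all genes. The log2 fold change of treated over control was positive for 30 members and negative for 16, with a median of 0.14 and a range of -1.001 to 3.02. The ends of this range were low-count genes, Sema5a with 182 counts in all and Efna2 with 78. The median over all genes tested was -0.003. By library, the members' median difference from the control mean was 0.09, -5.5e-05 and 0.11 on the log2 scale in treated libraries 1, 2 and 3, against 0.02, 0.04 and -0.08 in control libraries 1, 2 and 3. Treated library 2 thus lay below control libraries 1 and 2, and the groups overlapped in this summary. Without treated library 1 the members' median log2 fold change was 0.05, without control library 3 it was 0.07, and without control library 1 it was 0.21.

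Markers of blood vessel lining cells differed between the same groups. The 25 endothelial markers summed to 691.1, 682.3 and 656.1 CPM in treated libraries 1, 2 and 3, against 493.1, 489.3 and 467.5 CPM in control libraries 1, 2 and 3, and the groups did not overlap. Of the 25, 9 rose past the threshold and none fell past it, against 1.36% and 0.249% of all genes tested. The median log2 fold change of the 25 was 0.85, with 24 positive and 1 negative. The negative one was Vwf, at -0.49 ± 0.20 (edgeR adjusted p = 0.284). Over all marker lists, with 99 genes tested, edgeR called 10 genes, against 1.61% of all genes, and DESeq2 18, against 6.21%. The 10 became 4 without treated library 2 or control library 2, 5 without control library 1 and 6 without control library 3, while Pecam1 and Cdh5 stayed called without each single library. Lymphocyte markers summed to between 4.09 and 10.2 CPM in treated libraries and between 11.04 and 11.3 CPM in controls, with none of 12 tested past the threshold. Neutrophil markers summed to 52.6, 16.7 and 4.61 CPM in treated libraries 1, 2 and 3 and to between 1.91 and 5.00 CPM in controls. Macrophage and dendritic cell markers summed to between 78.5 and 256.6 CPM in treated libraries and between 138.0 and 182.6 CPM in controls. None of the markers in the table was at 0 in all libraries. The part of these cells in the changes of the guidance genes was not tested.

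**Figure D2:**
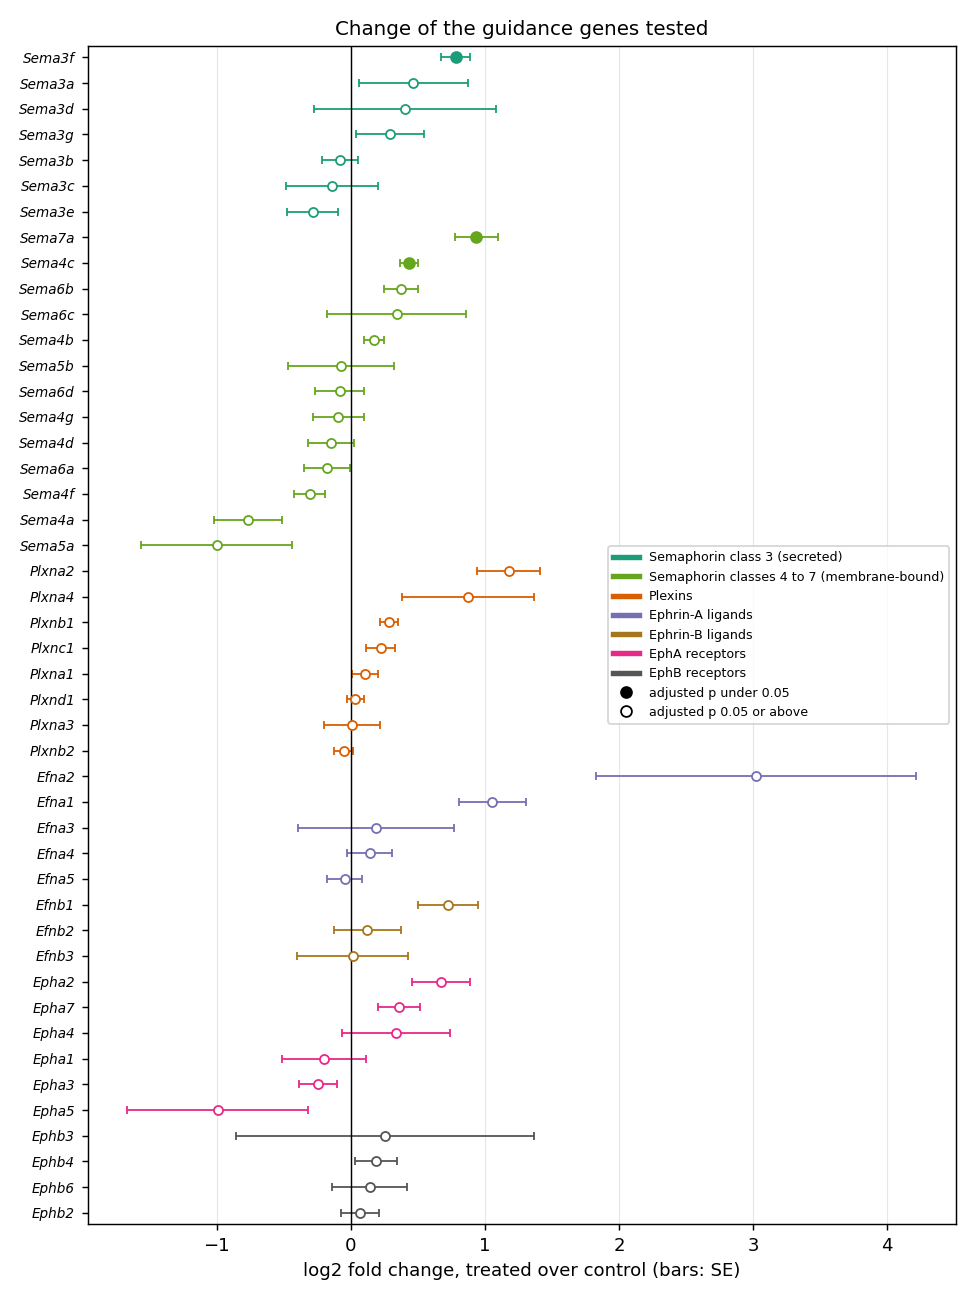
Log2 fold change of treated over control for the 46 guidance genes tested, by class, with bars of 1 SE from edgeR; filled points have an adjusted p under 0.05. The filled points are Sema3f, Sema7a and Sema4c, all to the right of 0, and the widest bars belong to genes with few counts, such as Efna2 and Ephb3.

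Among the 7 secreted class 3 semaphorins, Sema3f rose and none fell. Sema3f signals mainly through neuropilin-2 with a class A plexin, and is known to repel endothelial and tumour cells. Its level was 15.8, 14.5 and 14.9 CPM in treated libraries 1, 2 and 3, against 8.45, 8.98 and 8.93 CPM in control libraries 1, 2 and 3. All treated libraries were high, all controls were low, and the gap between the groups was wider than either group's range. The log2 fold change was 0.78 ± 0.11 (SE), or 1.72-fold (edgeR adjusted p = 0.0153). These values rest on 934 to 1036 counts per treated library and 509 to 578 per control. The call held without treated library 1 (0.0392) or 3 (0.0316), and was lost without treated library 2 (0.0584), control library 1 (0.0764), control library 2 (0.111) or control library 3 (0.0765). The log2 fold change stayed between 0.75 and 0.81 over all 12 alternative settings.

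Sema3f lies on chromosome 9 from 107681500 to 107710475, on the minus strand, in the coordinates of the deposited table. Sema3b, the most abundant class 3 member, lies 72.3 kb away on the same strand, with 4 other genes of the table in between. Its level was 52.3, 53.1 and 57.8 CPM in treated libraries 1, 2 and 3, against 68.6, 58.5 and 45.7 CPM in control libraries 1, 2 and 3. The control values spanned the treated ones, and the log2 fold change was -0.08 ± 0.14 (edgeR adjusted p = 0.828). Its sign changed without control library 1, to 0.07.

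Sema3e, a ligand that binds Plxnd1 without a neuropilin, was the class 3 member with the next smallest p. It had 3.40, 4.22 and 4.32 CPM in treated libraries 1, 2 and 3, against 4.37, 5.42 and 4.77 CPM in control libraries 1, 2 and 3. Every treated library was below every control, narrowly at 4.32 and 4.37 CPM, and the log2 fold change of -0.29 ± 0.19 did not pass the threshold (edgeR adjusted p = 0.514). Sema3a, which makes axon growth cones collapse, and Sema3g, a semaphorin of vessels, were each highest in treated library 1, at 1.91 and 4.41 CPM, and overlapped between groups. That library is the one with the high keratinocyte and epithelial markers, and their part in these values was not tested. The remaining class 3 members, Sema3c and Sema3d, had log2 fold changes of -0.14 ± 0.34 and 0.40 ± 0.68. The 7 genes together summed to 14.3, 13.6 and 15.1 FPKM in treated libraries 1, 2 and 3, against 16.1, 14.2 and 11.4 FPKM in control libraries 1, 2 and 3. These sums overlapped, Sema3b being the largest part of each.

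Among the 13 membrane-bound semaphorins, Sema7a and Sema4c rose and none fell. Sema7a is anchored by a lipid, is expressed on activated T cells and other cells, and acts on monocytes and pigment cells through an integrin of the beta1 class and through Plxnc1. Its level was 61.2, 53.3 and 43.7 CPM in treated libraries 1, 2 and 3, against 32.6, 27.5 and 22.6 CPM in control libraries 1, 2 and 3. The lowest treated library lay above the highest control, and both groups spread widely around their means. The log2 fold change was 0.93 ± 0.16, or 1.91-fold (edgeR adjusted p = 0.0323). It was called without treated library 3 (0.0173) or control library 1 (0.0480), and was not without treated library 1 (0.0707), treated library 2 (0.137), control library 2 (0.177) or control library 3 (0.121). Over the 12 alternatives the log2 fold change ran from 0.81 to 1.08. Treated library 1, with the highest Sema7a, also held the most keratinocyte, neutrophil and macrophage marker transcript. The part of those cells was not tested, and without that library the log2 fold change was 0.81.

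Sema4c, a transmembrane ligand of Plxnb2, had a smaller and tighter difference. Its level was 60.8, 58.1 and 56.3 CPM in treated libraries 1, 2 and 3, against 44.7, 44.4 and 40.7 CPM in control libraries 1, 2 and 3. The groups did not overlap, and the gap between them exceeded the range within each. The log2 fold change was 0.43 ± 0.07, or 1.35-fold (edgeR adjusted p = 0.0248). The call held without treated library 3 (0.0397), and was lost without treated library 1 (0.0536) or 2 (0.0969) and without control library 1 (0.0764), 2 (0.134) or 3 (0.0946). Sema4c lies on chromosome 1 from 36548639 to 36558349 on the minus strand, and D430040D24Rik overlaps it on the opposite strand. Whether counting used strand is not given, so reads of these genes may not be separable. D430040D24Rik had 866 counts in all, against a difference of 3380 counts between the summed treated and control libraries for Sema4c.

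Sema7a lies on chromosome 9 from 57940112 to 57962865 on the plus strand. The promoter windows of both called membrane-bound semaphorins are printed next, with that of Plxnc1, the plexin partner of Sema7a, to show the sequence around their start sites. Plxnc1 was taken because its window holds the interferon motif given below. Sema6b, the other member with that motif, is not printed. Sema3f, the third called member, had no window. For Sema4c, 1 of its 2 windows is shown, the one with a motif. Each runs from 250 bases before to 50 bases after a start annotated by RefSeq on GRCm38.p6, 5′ to 3′ on the gene's strand. Capitals mark matches to the core of the interferon-stimulated response element, GAAA with any 2 bases and then GAAA, or to an AP-1 site, TGANTCA, each searched on both strands. The windows lie at chr9:57939862-57940161 on the plus strand for Sema7a, at chr1:36558332-36558631 on the minus strand for Sema4c, and at chr10:94944796-94945095 on the minus strand for Plxnc1.
Sema7a: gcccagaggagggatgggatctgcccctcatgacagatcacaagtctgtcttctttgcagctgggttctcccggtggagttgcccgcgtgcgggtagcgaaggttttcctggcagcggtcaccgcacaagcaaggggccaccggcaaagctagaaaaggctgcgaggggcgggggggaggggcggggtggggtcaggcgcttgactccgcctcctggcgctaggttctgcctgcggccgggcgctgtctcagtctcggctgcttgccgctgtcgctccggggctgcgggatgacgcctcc
Sema4c: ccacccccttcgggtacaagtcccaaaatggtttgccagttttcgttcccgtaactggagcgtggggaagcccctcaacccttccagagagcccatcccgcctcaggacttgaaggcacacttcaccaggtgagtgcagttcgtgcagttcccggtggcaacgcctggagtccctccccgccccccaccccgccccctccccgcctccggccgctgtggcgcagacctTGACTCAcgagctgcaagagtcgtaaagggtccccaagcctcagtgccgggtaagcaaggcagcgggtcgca
Plxnc1: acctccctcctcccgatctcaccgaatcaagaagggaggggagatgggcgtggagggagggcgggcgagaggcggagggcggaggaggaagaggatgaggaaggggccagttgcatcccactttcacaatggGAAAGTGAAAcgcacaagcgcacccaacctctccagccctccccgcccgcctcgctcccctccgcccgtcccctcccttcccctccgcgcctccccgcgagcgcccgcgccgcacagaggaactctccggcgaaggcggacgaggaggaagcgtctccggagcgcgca
The Sema7a window held neither motif. The Sema4c window held an AP-1 site and the Plxnc1 window an interferon element core, and none of the printed windows held both. Over the promoter table, 42 of the 48 members matched, with 56 windows. The interferon core was found in 2 of the 56, those of Plxnc1 and Sema6b, against 3.44% of 32851 windows of the same length. The AP-1 site was found in 3, those of Sema4c, Sema4d and Sema6b, against 7.81%. The median G+C content was 64.2% in the members' windows and 52.7% in all windows. A match here describes letters only.

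**Figure D3:**
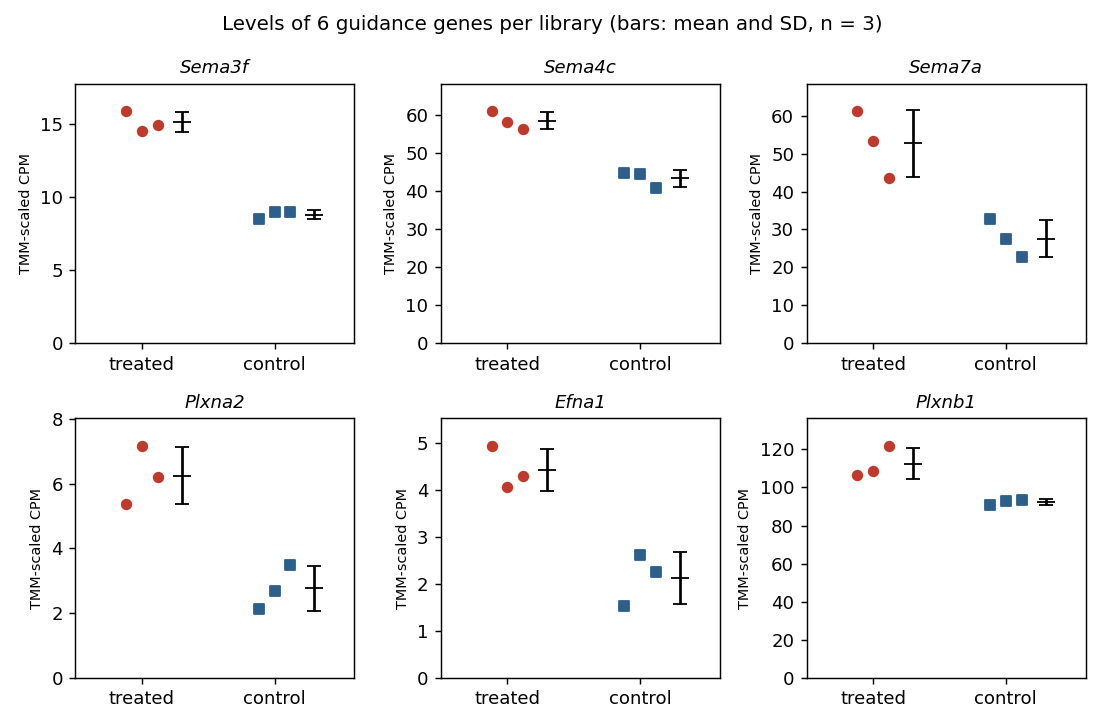
Level in TMM-scaled CPM of Sema3f, Sema4c, Sema7a, Plxna2, Efna1 and Plxnb1 in each library, with treated libraries on the left and controls on the right, and bars of mean and SD (n = 3) beside the points. In all 6 panels every treated point lies above every control point, and only the first 3 genes passed the adjusted threshold.

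The other membrane-bound semaphorins, described here after their values were seen, did not move one way. Sema4a, a ligand of immune and epithelial cells, had 3.87, 2.28 and 2.44 CPM in treated libraries 1, 2 and 3, against 5.55, 4.70 and 4.39 CPM in control libraries 1, 2 and 3. Every treated library was below every control, and the log2 fold change of -0.77 ± 0.25 missed the threshold (edgeR adjusted p = 0.197). Sema4f, better known from the nervous system, was also lower in every treated library, at 18.4, 21.4 and 23.7 CPM against 25.6, 24.7 and 28.3 CPM in controls 1, 2 and 3 (log2 fold change -0.31 ± 0.12, edgeR adjusted p = 0.249). Sema6b was higher in every treated library, at 15.9, 20.0 and 19.0 CPM against 13.4, 15.4 and 13.5 CPM in controls 1, 2 and 3 (log2 fold change 0.37 ± 0.12, edgeR adjusted p = 0.205). Its closest treated and control values, 15.9 and 15.4 CPM, nearly met. Sema4b was higher in each treated library too, with a log2 fold change of 0.17 ± 0.07 (adjusted p = 0.307 by edgeR). Sema4d, the ligand of Plxnb1 with roles on lymphocytes, had a log2 fold change of -0.15 ± 0.17, and its groups overlapped. The summed FPKM of the 13 genes was 52.1, 49.4 and 47.2 in treated libraries 1, 2 and 3, against 43.4, 41.1 and 36.2 in control libraries 1, 2 and 3. The groups did not overlap in this sum, of which Sema7a alone made 14.1 FPKM in treated and 7.41 FPKM in control tumours.

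No plexin of the 8 passed the adjusted threshold in edgeR. At an unadjusted p under 0.05 there were 2 of the 8, against 16.0% of all genes tested. DESeq2 called 2, against 6.21% of all genes, and 2 had non-overlapping groups, against 23.3%. In each case both were higher in treated tumours. Plxna2, a receptor for class 6 semaphorins and, with neuropilins, class 3, came closest. Its level was 5.38, 7.16 and 6.20 CPM in treated libraries 1, 2 and 3, against 2.12, 2.69 and 3.49 CPM in control libraries 1, 2 and 3. The groups were well apart, with a log2 fold change of 1.18 ± 0.23 (adjusted p = 0.0570 by edgeR). DESeq2 called Plxna2 (adjusted p = 0.000287), as did the quality-weighted limma-voom fit (adjusted p = 0.00821), and leaving out 1 library gave edgeR adjusted p between 0.0697 and 0.264. Plxna2 stayed a low-level gene, at 0.320 ± 0.0408 FPKM in treated and 0.142 ± 0.0358 FPKM in control tumours.

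Plxnb1, the receptor for Sema4d, had 106.8, 108.9 and 121.7 CPM in treated libraries 1, 2 and 3, against 90.8, 93.0 and 93.3 CPM in control libraries 1, 2 and 3. The controls lay within a narrow band and every treated library was above it. The log2 fold change was 0.28 ± 0.07 (edgeR adjusted p = 0.102), and both DESeq2 (adjusted p = 0.0113) and the quality-weighted limma-voom fit (adjusted p = 0.0364) called it. Plxna1, with 595.2, 625.9 and 696.0 CPM in treated libraries 1, 2 and 3 against 658.3, 603.2 and 517.7 CPM in control libraries 1, 2 and 3, overlapped (log2 fold change 0.11 ± 0.10, edgeR adjusted p = 0.659). Plxnc1 was highest in treated library 1, at 162.9 CPM, and had 128.9 and 128.7 CPM in treated libraries 2 and 3, against 130.4, 120.0 and 110.0 CPM in control libraries 1, 2 and 3. Its groups overlapped, with a log2 fold change of 0.22 ± 0.11 (adjusted p = 0.372 by edgeR). Plxnb2, Plxnd1 and Plxna3 had log2 fold changes of -0.05, 0.03 and 0.01, with SEs of 0.07, 0.06 and 0.21.

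Plxna4 was the lowest plexin, with 32, 88 and 96 counts in treated libraries 1, 2 and 3, against 54, 27 and 31 in control libraries 1, 2 and 3. Treated library 1 lay among the controls, and the log2 fold change was 0.87 ± 0.49 (edgeR adjusted p = 0.439).

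Of the ephrin-A ligands, none of 5 passed the adjusted threshold in edgeR. An unadjusted p under 0.05 was found for 2 (background 16.0%), and DESeq2 called 1 (background 6.21%). The 2 include Efna2, which passed the filter on low counts through the treated group alone. Efna1, a ligand of EphA2 that tumour necrosis factor induces in endothelial cells, had 4.94, 4.07 and 4.31 CPM in treated libraries 1, 2 and 3, against 1.53, 2.61 and 2.26 CPM in control libraries 1, 2 and 3. The lowest treated library was well above the highest control, with a log2 fold change of 1.06 ± 0.25, or 2.08-fold (adjusted p = 0.0928 by edgeR). DESeq2 called it (adjusted p = 0.00551). Efna1 lies on chromosome 3 from 89271733 to 89281142, with Efna3 32.8 kb away and Efna4 10.4 kb beyond Efna3, all on the minus strand. These neighbours had log2 fold changes of 0.19 ± 0.58 and 0.14 ± 0.17, and the groups of each overlapped. Efna3 is overlapped on the opposite strand by Gm15998, which had 539 counts against 111 for Efna3.

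Efna2 had 29, 21 and 20 counts in treated libraries 1, 2 and 3, against 0, 8 and 0 in control libraries 1, 2 and 3. All treated libraries were above all controls, and it passed the filter through the treated group alone. The fitted log2 fold change of 3.02 ± 1.19 rests on 78 counts in all and did not pass (edgeR adjusted p = 0.272). Efna5, the most abundant ephrin, averaged 3.09 ± 0.276 FPKM in treated and 3.20 ± 0.406 FPKM in control tumours (log2 fold change -0.04 ± 0.13, edgeR adjusted p = 0.913), and its sign changed under some settings. The class summed to 8.38, 8.13 and 8.23 FPKM in treated libraries 1, 2 and 3. In control libraries 1, 2 and 3 it summed to 6.72, 6.59 and 7.28 FPKM, with no overlap between groups. Of this sum, Efna1 alone made 2.14 FPKM in treated and 1.03 FPKM in control tumours.

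Of the 3 ephrin-B ligands, which take part in artery and vein formation and in T cell contacts, none passed with edgeR or DESeq2. An unadjusted p under 0.05 was found for 1 of them (background 16.0%). Efnb1 had 4.50, 4.16 and 5.15 CPM in treated libraries 1, 2 and 3, against 3.29, 2.95 and 2.10 CPM in control libraries 1, 2 and 3. The groups did not overlap, and the log2 fold change was 0.73 ± 0.23 (edgeR adjusted p = 0.1805). Efnb2, a marker of arterial endothelium, had 3.79, 2.78 and 4.65 CPM in treated libraries 1, 2 and 3, against 3.85, 3.71 and 2.75 CPM in control libraries 1, 2 and 3. Its groups overlapped (log2 fold change 0.12 ± 0.25, edgeR adjusted p = 0.865), and the sign turned negative without treated library 3 or control library 3. Efnb3 was highest and lowest in treated libraries, at 3.49 CPM in treated library 1 and 1.03 CPM in treated library 2.

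None of the 12 Eph receptors passed the threshold with edgeR or DESeq2. Of the 10 that were tested, 1 had an unadjusted p under 0.05 (background 16.0%). Epha2, a receptor of Efna1 expressed by many epithelial and tumour cells, had 3.85, 4.75 and 3.94 CPM in treated libraries 1, 2 and 3, against 2.39, 3.17 and 2.32 CPM in control libraries 1, 2 and 3. Every treated library was above every control, with a log2 fold change of 0.67 ± 0.21 (adjusted p = 0.188 by edgeR). Epha7 likewise did not overlap, at 8.09, 10.05 and 8.84 CPM in treated libraries 1, 2 and 3 and 7.86, 7.08 and 6.09 CPM in control libraries 1, 2 and 3 (log2 fold change 0.36 ± 0.16, edgeR adjusted p = 0.324). Epha3 leaned the other way, with 120.7, 150.3 and 180.3 CPM in treated libraries 1, 2 and 3, against 163.7, 175.4 and 196.5 CPM in control libraries 1, 2 and 3. Its lowest values were in treated libraries 1 and 2, treated library 3 lay among the controls, and the log2 fold change was -0.25 ± 0.14 (edgeR adjusted p = 0.445). Epha1 and Epha4 overlapped between groups, and Epha1 lies across Zyx on the opposite strand, which had 58926 counts against 713 for Epha1. Epha5 had 7, 19 and 19 counts in treated libraries 1, 2 and 3, against 24, 51 and 12 in control libraries 1, 2 and 3. It is overlapped on the opposite strand by Hmgn2-ps1, which had 1105 counts against 132 for Epha5.

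Among EphB receptors no member had separate groups. Ephb4, the venous partner of Efnb2 and the most abundant of them, had 22.3, 31.2 and 33.7 CPM in treated libraries 1, 2 and 3, against 27.0, 26.3 and 23.3 CPM in control libraries 1, 2 and 3. Treated library 1 was the lowest of all and treated library 3 the highest, with a log2 fold change of 0.19 ± 0.15 (adjusted p = 0.618 by edgeR). Ephb2 had a log2 fold change of 0.07 ± 0.14. Ephb6, which lacks kinase activity, had one of 0.14 ± 0.28, with a change of sign to -0.06 without treated library 1. Ephb3, with 93 counts in all, gave 0.26 ± 1.11. The untested receptors were Epha10, with 0, 6 and 0 counts in treated libraries 1, 2 and 3 and 4, 11 and 0 in control libraries 1, 2 and 3, and Ephb1, with 5, 3 and 0 in treated and 4, 12 and 8 in control libraries 1, 2 and 3.

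The rises in ligands were set beside the values of their known receptors, over 12 pairs drawn up from background knowledge after the values were seen. Sema3f rose, while its receptor Nrp2 had a log2 fold change of -0.06 ± 0.18, at 19.8 ± 4.40 FPKM in treated and 20.8 ± 3.51 FPKM in control tumours (edgeR adjusted p = 0.921). The class A plexins that act with Nrp2 were not paired with Sema3f. Plxna1, Plxna2, Plxna3 and Plxna4 had log2 fold changes of 0.11, 1.18, 0.01 and 0.87, with SEs of 0.10, 0.23, 0.21 and 0.49. None of these plexins passed in edgeR, Plxna2 coming closest (edgeR adjusted p = 0.0570), and DESeq2 called Plxna2. Sema4c rose beside a log2 fold change of -0.05 ± 0.07 for Plxnb2. Sema7a rose beside 0.22 ± 0.11 for Plxnc1 and -0.05 ± 0.08 for the integrin subunit Itgb1, which averaged 109.2 ± 10.2 FPKM in treated and 113.5 ± 1.80 FPKM in control tumours (edgeR adjusted p = 0.819). Per length, Sema7a and Plxnc1 were at similar levels in treated tumours, 14.1 and 14.8 FPKM, and stood at 7.41 and 12.8 FPKM in controls. The opposite arrangement was seen for Sema4d and Plxnb1 and for Sema6a and Plxna2, in which the receptor had the larger value and neither gene passed. In the pair of Efna1 and Epha2 both genes were higher in every treated library, and neither passed. Differences between ligand and receptor were not tested.

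**Figure D4:**
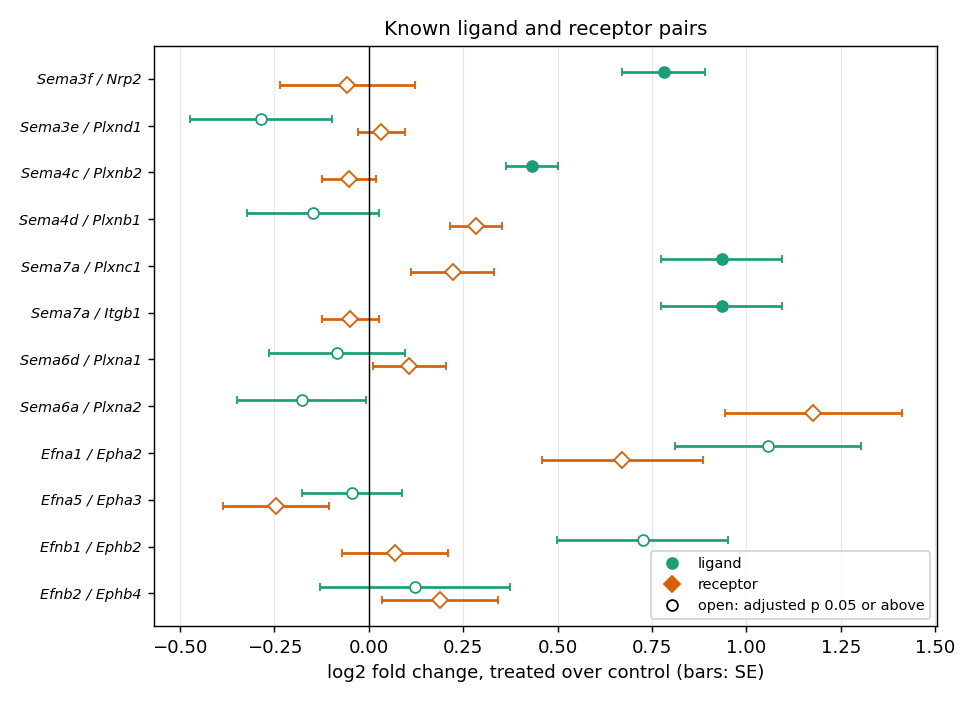
Log2 fold change of treated over control for the ligand (circle) and the receptor (diamond) of 12 known pairs, with bars of 1 SE; filled symbols have an adjusted p under 0.05. The filled symbols are the ligands Sema3f, Sema4c and Sema7a, the last drawn with each of 2 receptors, and the receptors drawn beside them lie between -0.06 and 0.22. The class A plexins that act with Nrp2 are not drawn beside Sema3f.

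Genes that act beside these families were described from 4 lists, with 81 genes tested. Over these edgeR called 2 genes, against 1.61% of all genes tested, and DESeq2 called 5, against 6.21%. The DESeq2 count is near that share and is no result about the lists. Of 12 co-receptors and other receptors of semaphorins, 11 were tested and none passed, with a median log2 fold change of 0.05. The most abundant was Met, a receptor kinase that can associate with plexin-B1, at 164.0 ± 10.5 FPKM in treated and 159.3 ± 10.6 FPKM in control tumours (edgeR adjusted p = 0.806). Erbb2, another kinase partner of plexin-B1, had 0.29 ± 0.12 (edgeR adjusted p = 0.292) and Nrp1 0.18 ± 0.10 (edgeR adjusted p = 0.439) as log2 fold changes. An unadjusted p under 0.05 was found for 1 of the 11, beside 16.0% of all genes.

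Of 27 plexin effectors 25 were tested, with 1 lower (background 0.249%), none higher (background 1.36%) and a median log2 fold change of -0.005. Mical1, a flavoprotein that oxidises and takes apart actin filaments on plexin signals, fell to 45.4, 44.3 and 50.8 CPM in treated libraries 1, 2 and 3, against 67.9, 61.3 and 62.3 CPM in control libraries 1, 2 and 3. The groups did not overlap, and the log2 fold change was -0.45 ± 0.08 (edgeR adjusted p = 0.0365). The call held without treated library 3 (0.0273) and was lost without any other single library (0.0822 to 0.151). Rnd1, a GTPase that binds the plexin cytoplasmic domain, had 7.45, 7.49 and 3.07 CPM in treated libraries 1, 2 and 3, against 2.50, 2.34 and 2.56 CPM in control libraries 1, 2 and 3. Every treated library was above every control, treated library 3 by little, and Rnd1 did not pass (log2 fold change 1.28 ± 0.34, edgeR adjusted p = 0.123). Rac1, the most abundant effector, differed by -0.11 ± 0.05 on the log2 scale (edgeR adjusted p = 0.372).

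Of 28 Eph and ephrin effectors 26 were tested and none passed, with a median log2 fold change of 0.07. An unadjusted p under 0.05 was found for 5 of the 26, 3 higher and 2 lower, beside the 16.0% of all genes, so this count is no result about the list. Inppl1, the lipid phosphatase SHIP2 that binds EphA2, had 0.23 ± 0.06 (edgeR adjusted p = 0.123). The adaptor Grb10 had 0.94 ± 0.26 (edgeR adjusted p = 0.139), Src had 0.20 ± 0.06 (edgeR adjusted p = 0.165), and the exchange factor Vav2 had -0.40 ± 0.14 (edgeR adjusted p = 0.227), all as log2 fold changes. Sdcbp, the scaffold syntenin that binds ephrin-B tails, was the most abundant and had -0.05 ± 0.05 (edgeR adjusted p = 0.679).

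Of 25 genes of other guidance families 20 were tested, with 1 higher (background 1.36%), none lower (background 0.249%) and a median log2 fold change of 0.09. Robo4, the roundabout receptor of endothelium, was the one that rose, and it is also one of the 25 endothelial markers. It had 19.0, 17.8 and 17.6 CPM in treated libraries 1, 2 and 3, against 6.58, 7.59 and 5.79 CPM in control libraries 1, 2 and 3. The groups were far apart, with a log2 fold change of 1.45 ± 0.13, or 2.73-fold (adjusted p = 0.00170 by edgeR), and the call held without each single library. Pecam1, a defining endothelial marker, rose 2.46-fold in the same comparison (log2 fold change 1.30 ± 0.09, edgeR adjusted p = 0.000348). Rgma, a ligand of neogenin, had 0.54 ± 0.18 (edgeR adjusted p = 0.191), the netrin Ntn4 had 1.11 ± 0.40 (edgeR adjusted p = 0.233), and Neo1, the most abundant of this list, had -0.16 ± 0.07 (edgeR adjusted p = 0.349), as log2 fold changes.

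Of the remaining marker lists, pericyte and fibroblast markers summed to 616.5 to 667.2 CPM in treated libraries and 392.2 to 680.6 CPM in controls. Past the threshold was 1 of 16, the pericyte channel gene Kcnj8, which was higher (background 1.36%). That call held without treated library 1 (adjusted p = 0.0316 by edgeR) and was lost without any other single library (0.0726 to 0.194). For 6 of the 16 every treated library lay above every control, and for none below, against 12.0% and 11.2% of all genes tested. An unadjusted p under 0.05 was found for 5, all higher (background 9.12%), and the median log2 fold change was 0.32. In control library 1 the collagen genes Col1a1, Col1a2 and Col3a1 held 167.2, 162.7 and 217.1 CPM of the sum. Schwann cell and neuron markers summed to between 327.0 and 431.8 CPM in treated libraries and between 324.0 and 388.9 CPM in controls, with none of 8 tested past the threshold. Sema6d and Sema3b, chosen for this comparison after their values were seen, had 81.1 and 68.6 CPM in control library 1 and 45.7 CPM each in control library 3. Pericyte and fibroblast markers were likewise highest in control library 1 (680.6 CPM) and lowest in control library 3 (392.2 CPM). Among controls this order was not particular to that list. Endothelial, pigment cell, and macrophage and dendritic cell markers had it too, at 493.1, 30924 and 182.6 CPM in control library 1. In control library 3 they summed to 467.5, 28067 and 138.0 CPM. The Schwann cell, lymphocyte, neutrophil and keratinocyte lists had other orders. The part of these cells in the control spread was not tested.

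With all 6 libraries and no term for the replicate number, Sema3f, Sema4c and Sema7a were called under each of 5 other scalings, filters and tools, while the quality-weighted limma-voom fit and DESeq2 also called Plxna2 and Plxnb1, and DESeq2 alone called Efna1. Without 1 library the number called ran from 0 to 3. It was 3 without treated library 3, 1 without treated library 1 (Sema3f), 1 without control library 1 (Sema7a), and 0 without treated library 2, control library 2 or control library 3. The directions of these 3 genes did not change in any setting.

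**Figure D5:**
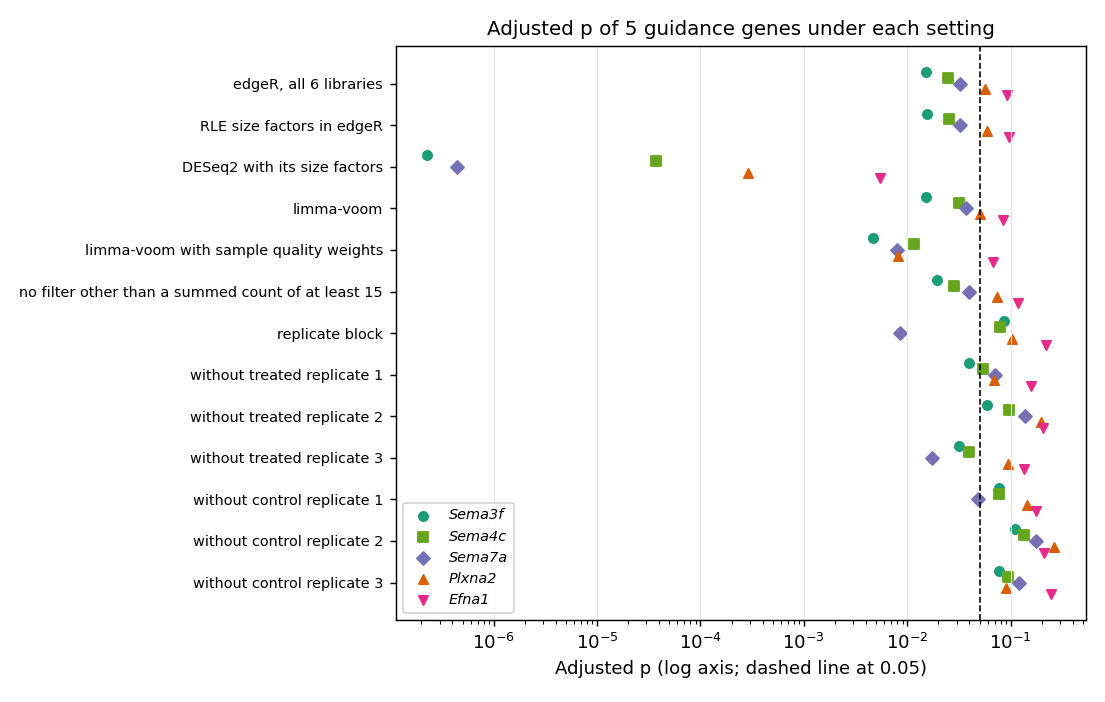
Adjusted p (log axis) of Sema3f, Sema4c, Sema7a, Plxna2 and Efna1 under the edgeR fit with all 6 libraries and 12 alternatives, 1 row each; the dashed line marks 0.05. The 3 semaphorins lie left of the line under the first 6 rows, Sema3f and Sema4c lie right of it in the row with the replicate block, and points lie right of it in most rows that leave out a library.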

How the data were processed

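RNA-seq of 3 treated and 3 control mouse tumour libraries was analysed from 1 deposited gene table. Per the file headers, its columns hold raw counts and FPKM per gene and library, both computed by the authors. Tools listed in the submitters' processing notes are edgeR, fastp and StringTie, without versions. For the aligner, genome build, annotation and use of strand, the sources used here give nothing. All 48 member IDs occur in GENCODE M21 (GRCm38), 43 with the same span as in the table.

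Counts were tested in R 4.3.3 with edgeR 4.0.16 (filterByExpr, minimum count 10 and minimum total count 15, 18049 genes kept, TMM, glmQLFit, glmQLFTest on group, two-sided), with Benjamini-Hochberg adjustment over all genes tested and calls at an adjusted p under 0.05. The biological coefficient of variation common to all genes was 0.252. SE is the size of a log2 fold change over the square root of F. CPM are TMM-scaled and FPKM serve only to compare genes. Alternatives used DESeq2 1.42.0 and limma 3.58.1. The fit was tested on simulated data.

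Members and lists were chosen with earlier results of these data known, and the AP-1 search was added after the data were seen. In each class the rule named every called member, the most abundant one and the 2 of smallest unadjusted p. Other members named were chosen after their values were seen.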

Additional observations from a re-analysis of the deposited data

How the results depend on the processing

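With DESeq2 the number of guidance genes called was 6 (1121 genes of the table, against 291), and 5 with limma-voom and sample quality weights (792 of the table), against 3. DESeq2 called 5 genes of the pathway lists and 18 of the marker lists, against 2 and 10. The members' median log2 fold change was 0.064 with quality weights, against 0.14. Replicate numbers are shared by the groups. Deviations from the group means had correlations of 0.0855, -0.164 and -0.107 between samples of the same number. With 3 libraries per group, these values cannot show whether such samples were paired or shared a batch. With the replicate block 1 guidance gene was called, Sema7a (137 genes of the table), with 1 gene of the pathway lists and 4 of the marker lists. Leaving out 1 library gave 0 to 3 guidance genes called (97 to 347 genes of the table), 1 to 3 pathway genes and 4 to 12 marker genes. In the same fits the members' median was 0.050 to 0.21, and 16 to 23 members had groups without overlap. Of all genes tested, 29.8% to 35.7% had no overlap there. Efna5 reversed to 0.085 and Efnb2 to -0.038 with quality weights, and leaving out 1 library gave ranges of -0.15 to 0.018 for Efna5, -0.065 to 0.30 for Efnb2, -0.22 to 0.069 for Sema3b and -0.062 to 0.25 for Ephb6, all on the log2 scale. The causes were not tested. RLE factors, limma-voom and no count filter changed no call of a guidance gene. Few counts limit Efna2, Efna3, Ephb3, Epha5, Sema3d, Sema5a, Sema6c and Plxna4.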
